A study of Mus musculus with 8 samples.

Results

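The 10 genes described here encode receptors through which early blood progenitors sense growth factors and inflammatory cytokines: Kit, Flt3, Il3ra, Csf2ra, Csf2rb, Csf2rb2, Il6ra, Il6st, Il1r1 and Ifngr1. They were listed by name for what their proteins do, with earlier results of these data known, and all 10 were found among the 37980 gene rows of the table. Polyadenylated RNA was sequenced from multipotent progenitors (MPPs) of mouse bone marrow, cells that can form every blood lineage for a limited time. Each library held 1000 sorted cells that carried c-kit, Sca1 and CD135 on their surface and lacked lineage markers, CD48 and CD150. The NA group had 4 libraries from NA LSL/+; Vav-Cre mice, in which the NUP98-HOXA10hd fusion (NA) is expressed from the Rosa26 locus after Vav-driven Cre, active in blood cells, removes a stop cassette. The WT group had 4 libraries from age-matched CD45.2 C57BL/6 mice, and the NA mice were also on C57BL/6. Neither the age nor the sex of the mice was given. The labels did not say whether the 4 libraries of a group came from separate mice, so the p-values measure only the spread between libraries, which may be technical.

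Cytokine receptors work as pairs. Kit and Flt3 are receptor tyrosine kinases that dimerise around stem cell factor and FLT3 ligand. The receptors for IL-3 and GM-CSF each join a ligand-specific alpha chain, encoded by Il3ra or Csf2ra, to a signalling beta chain. In the mouse there are a pair of beta chains, the common one encoded by Csf2rb and the IL-3-specific one encoded by Csf2rb2. The IL-6 receptor, encoded by Il6ra, signals through gp130, encoded by Il6st, which many other receptors share. Il1r1 encodes the signalling receptor for IL-1, and Ifngr1 the ligand-binding chain for interferon gamma, which needs the second chain, Ifngr2, to signal.

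A short stretch of coding sequence is shown for the members that hold an exact WSXWS box. This motif, tryptophan-serine-any-tryptophan-serine, lies near the membrane in many class I cytokine receptors, and it was searched in frame in 1 GENCODE M21 coding sequence per member. The capitals are the tryptophan and serine codons and the lower-case letters the variable codon:
Csf2rb: TGGAGCaagTGGAGC
Csf2rb2: TGGAGCgagTGGAGC
Il6ra: TGGAGCgaaTGGTCC
Il6st: TGGAGTgacTGGAGT
The boxes began at codon 428 in Csf2rb, 427 in Csf2rb2, 300 in Il6ra and 308 in Il6st. No exact match was found in the coding sequences of Kit, Flt3, Il3ra, Csf2ra, Il1r1 and Ifngr1. Il3ra and Csf2ra also encode class I receptors, so the lack of an exact match does not place a gene outside that class. The beta chain genes differ in the variable codon, and their coding sequences were identical at 95.2% of 2631 aligned bases. Of all stretches of 50 bases in the Csf2rb transcript, 18.4% also occurred in Csf2rb2, and 19.0% of those in Csf2rb2 occurred in Csf2rb, so the division of reads between these neighbouring genes is uncertain.

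Ifngr1 had the largest change of the 10 genes, and its promoter is shown for that reason. It lies on chromosome 10, at chr10:19591949-19610229 on the plus strand of GRCm38 (mm10), and has 7 exons. The 250 bases before its start, chr10:19591699-19591948 on the plus strand (RefSeq, GRCm38.p6), are given 5′ to 3′. Capitals mark CCGCCC, a GC box, and CCAAT or its reverse complement, a CCAAT box:
Ifngr1: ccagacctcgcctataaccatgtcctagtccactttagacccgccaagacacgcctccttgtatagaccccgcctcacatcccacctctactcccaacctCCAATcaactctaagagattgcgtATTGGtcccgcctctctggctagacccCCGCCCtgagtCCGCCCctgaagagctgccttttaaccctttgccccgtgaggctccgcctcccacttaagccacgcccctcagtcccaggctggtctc
This window held 2 GC boxes and 2 CCAAT boxes. On both strands, CCGCCC was found in 32.7% and CCAAT in 33.8% of 32851 promoter windows of the same length. The letters TGATTTAT, a site bound by HOX proteins with PBX, and TTCNNNGAA, the site bound by STAT dimers, were in 0.837% and 7.02% of windows and in neither case in that of Ifngr1. RefSeq promoters were matched for 9 of the 10 genes, all but Csf2rb. Among these 9, the GC box was found in 6, the CCAAT box in 3 (Ifngr1, Il1r1 and Il6st), TTCNNNGAA in Csf2rb2 and TGATTTAT in none. Here a gene counted if any of its windows held the motif. Counted so over 27025 genes, the shares were 35.4%, 37.5%, 8.13% and 0.995%, in the same order. In these windows no match of 1 motif overlapped a match of another.

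Of the 10 receptor genes, 2 rose in NA MPPs, Ifngr1 and Il1r1, and none fell at an adjusted p below 0.05 (limma, Benjamini-Hochberg over 11451 tested genes). Among all tested genes 17.9% were called in either direction, 10.1% higher and 7.87% lower, so 2 of 10 is near the background share. At an unadjusted p below 0.05, 1 receptor gene was lower, Csf2ra (limma, unadjusted p = 0.0413). Of all 11451 tested genes, 3716 were below that threshold in either direction. All 10 genes passed the filter on low values. The median log2 fold change of the 10 was -0.07, against -0.01 for all tested genes, with 5 values above 0 and 5 below. Values are normalised counts, which are the RSEM counts divided by 1 factor per library. In RNA from sorted cells in bulk, fewer cells that express a gene and less RNA per cell cannot be told apart.

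**Figure D1:**
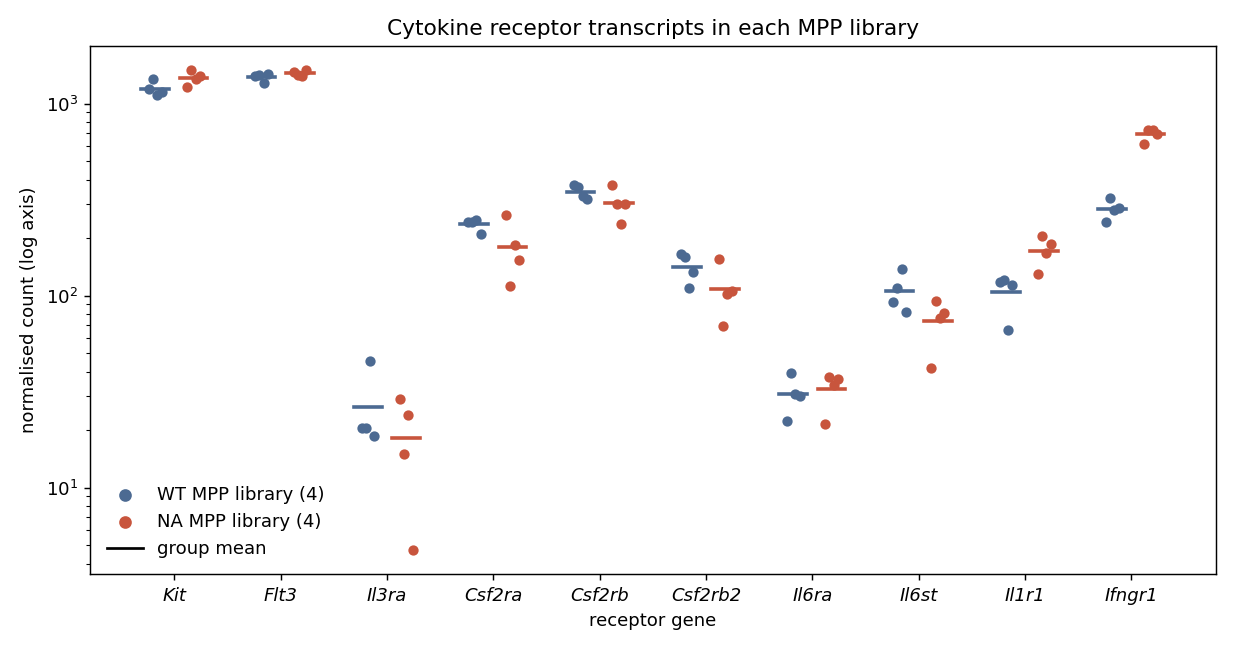
Normalised counts (log axis) of each receptor gene in the 4 WT MPP libraries (blue) and the 4 NA MPP libraries (red), each point 1 library and each line a group mean. The groups separate completely for Ifngr1 and Il1r1, and overlap for the other 8 genes.

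A few facts of the libraries bear on these results. Estimated depth lay between 3876893 and 4916987 reads. NA4 and WT4 each sat closer to the mean of the other 3 libraries of their group than those did to theirs, with an SD of log2 differences of 0.202 for NA4 and 0.145 for WT4 against 0.275 to 0.340 for the rest (7238 genes with a mean of at least 100). Without NA4 and WT4, 519 genes were called instead of 2053, so results are also given without them. Whether NA4 and WT4 are separate from the other libraries was not tested, and if they are not, n = 4 and the p-values given here overstate the precision. Xist, the transcript of the inactive X chromosome, read 0.940 to 2.80 in the NA and 869 to 1286 in the WT libraries, and Ddx3y of the Y chromosome 281 to 668 and 0 to 0.888. Sex and genotype therefore cannot be told apart, and none of the 10 genes lies on a sex chromosome. Hoxa10 read 324 ± 32.0 in the NA libraries and 139 ± 7.997 in the WT libraries (SD, n = 4 each). Whether reads from the HOXA10 part of the fusion were counted there was not tested.

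The kinase receptors, whose proteins were part of the sorting gate, were the most abundant transcripts of the 10 in normalised counts. Kit, the receptor for stem cell factor, at chr5:75574916-75656722 (GRCm38, as for all positions here), read 1225, 1490, 1337 and 1398 in NA1 to NA4 and 1188, 1350, 1103 and 1149 in WT1 to WT4. WT2 lay above NA1 and NA3, so the groups overlapped. The log2 fold change was 0.19 (SE 0.090, 95% interval -0.0070 to 0.38, limma adjusted p = 0.169). Flt3, which encodes CD135, at chr5:147330741-147400489 on the minus strand, read 1459, 1413, 1398 and 1498 in the NA and 1392, 1412, 1274 and 1420 in the WT libraries. These groups overlapped too, with a log2 fold change of 0.07 (SE 0.075, 95% interval -0.091 to 0.23, limma adjusted p = 0.554). Because both proteins were gated on, cells with little of either would not have entered the libraries. Of 9 tested genes on a list for the gate, Kit and Flt3 among them, 2 fell (22.2%, against 7.87% of all tested genes). None rose (against 10.1%). Cd48 read 17.7 ± 5.36 in the NA libraries and 56.1 ± 21.3 in the WT libraries (SD, n = 4 each, limma adjusted p = 0.00711). Ly6a, which encodes Sca1, read 1277 ± 88.5 and 1548 ± 63.3 (SD, n = 4 each, limma adjusted p = 0.0257). Without NA4 and WT4 none of the list was called.

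None of the 4 IL-3 and GM-CSF receptor genes passed the test, and all 4 had lower means in NA MPPs. Il3ra, the alpha chain for IL-3, at chr14:14346275-14356011, was low throughout, at 28.9, 15.04, 24.0 and 4.72 in the NA and 20.4, 20.4, 45.5 and 18.6 in the WT libraries. WT3 was the highest library and NA4 the lowest, and the rest lay among each other. Its log2 fold change was -0.65 with a wide interval of -1.75 to 0.45 (SE 0.514, limma adjusted p = 0.403). Csf2ra, the alpha chain for GM-CSF, at chr19:61223957-61228429 on the minus strand, read 264, 112, 185 and 153 in the NA and 242, 242, 248 and 210 in the WT libraries. NA1 was the highest of all 8 libraries, whereas NA2, NA3 and NA4 lay below every WT library. The log2 fold change of Csf2ra was -0.47 (SE 0.208, 95% interval -0.91 to -0.021, limma adjusted p = 0.136), and without NA1 it was -0.68 with a limma adjusted p of 0.0171. Whether Csf2ra passed thus depended on 1 library.

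Both beta chain genes had groups that overlapped. They are neighbours on chromosome 15, Csf2rb at chr15:78325752-78353847 on the plus strand and Csf2rb2 at chr15:78282507-78305721 on the minus strand. Csf2rb, the common chain, read 378, 302, 237 and 301 in the NA and 376, 367, 329 and 318 in the WT libraries, with NA1 level with the top WT library and the other 3 below all of them. Its log2 fold change was -0.21 (SE 0.139, 95% interval -0.50 to 0.091, limma adjusted p = 0.326). Csf2rb2, the IL-3-specific chain, read 156, 69.6, 103 and 106 in the NA and 164, 159, 109 and 133 in the WT libraries. NA1 lay within the WT range and the other 3 NA libraries below it, and the log2 fold change was -0.42 (SE 0.228, 95% interval -0.91 to 0.072, limma adjusted p = 0.223). Since reads may be split between the 2 genes, their sum is safer, and it was 413 ± 85.2 in the NA libraries and 489 ± 51.7 in the WT libraries (SD, n = 4 each). Csf2rb2 made up 18.7% to 30.2% of that sum in the NA and 24.9% to 30.4% in the WT libraries. Il5ra, the alpha chain for IL-5 that uses the same common beta chain, was too low to be tested.

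Neither gene of the IL-6 receptor, Il6ra at chr3:89864059-89913196 on the minus strand and Il6st at chr13:112464070-112510086, passed the test. Il6ra read 21.5, 37.6, 34.2 and 36.6 in the NA and 22.2, 39.6, 30.7 and 30.2 in the WT libraries, with the groups on the same range. Its log2 fold change was 0.07 (SE 0.311, 95% interval -0.59 to 0.74, limma adjusted p = 0.895), and the interval is too wide to show that the level was the same. Il6st, which encodes gp130, read 42.0, 94.0, 76.6 and 81.5 in the NA and 92.3, 110, 138 and 82.6 in the WT libraries. NA2 alone of the NA libraries reached the WT range, and the log2 fold change was -0.55 (SE 0.257, 95% interval -1.10 to 0.0015, limma adjusted p = 0.155).

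Il1r1, the signalling receptor for IL-1, at chr1:40225080-40317257, was higher in every NA library. It read 130, 204, 166 and 185 in NA1 to NA4 and 117, 121, 66.0 and 114 in WT1 to WT4. The lowest NA library lay just above the highest WT library, so the groups did not overlap, a state that 22% of all tested genes shared. The means were 171 ± 31.7 and 105 ± 25.8 (SD, n = 4 each), a fold of 1.66 (95% interval 1.21 to 2.28, log2 fold change 0.73, SE 0.214, limma adjusted p = 0.0306). This call was close to the threshold. The limma adjusted p was 0.0877 without NA2, 0.0973 without NA4, 0.0661 without WT3, 0.0517 without WT4 and 0.156 without NA4 and WT4, while the log2 fold change stayed between 0.52 and 0.85 over all 20 alternatives. Il1rap, the accessory chain that Il1r1 needs, read 134 ± 18.1 in the NA libraries and 103 ± 37.0 in the WT libraries (SD, n = 4 each, limma adjusted p = 0.209). Il1r2, the decoy receptor, read 19.3 ± 9.28 and 10.1 ± 3.22 (limma adjusted p = 0.270).

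Ifngr1, the ligand-binding chain for interferon gamma, changed most. It read 620, 732, 728 and 698 in the NA and 242, 323, 280 and 287 in the WT libraries. The lowest NA library was well above the highest WT library. The means were 694 ± 52.0 and 283 ± 32.9 (SD, n = 4 each), a fold of 2.46 (95% interval 2.08 to 2.90, log2 fold change 1.30, SE 0.112, limma adjusted p = 4.39e-06). In rank, 280 of the 11451 tested genes had a larger log2 fold change. It passed under all 20 alternatives, with log2 fold changes from 1.22 to 1.36 and adjusted p from 2.49e-06 to 0.000933, the range including the fits without NA4 and WT4. Its partner Ifngr2 read 69.2 ± 10.9 in the NA libraries and 77.2 ± 22.7 in the WT libraries (SD, n = 4 each), for which limma gave a log2 fold change of -0.13 and an adjusted p of 0.737. The 3 genes with the most similar profile over the 8 libraries were Ppp1cb, Irf2bp2 and Hdac3, whose centred log2 values differed from those of Ifngr1 by a root mean square of 0.103, 0.118 and 0.141.

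**Figure D2:**
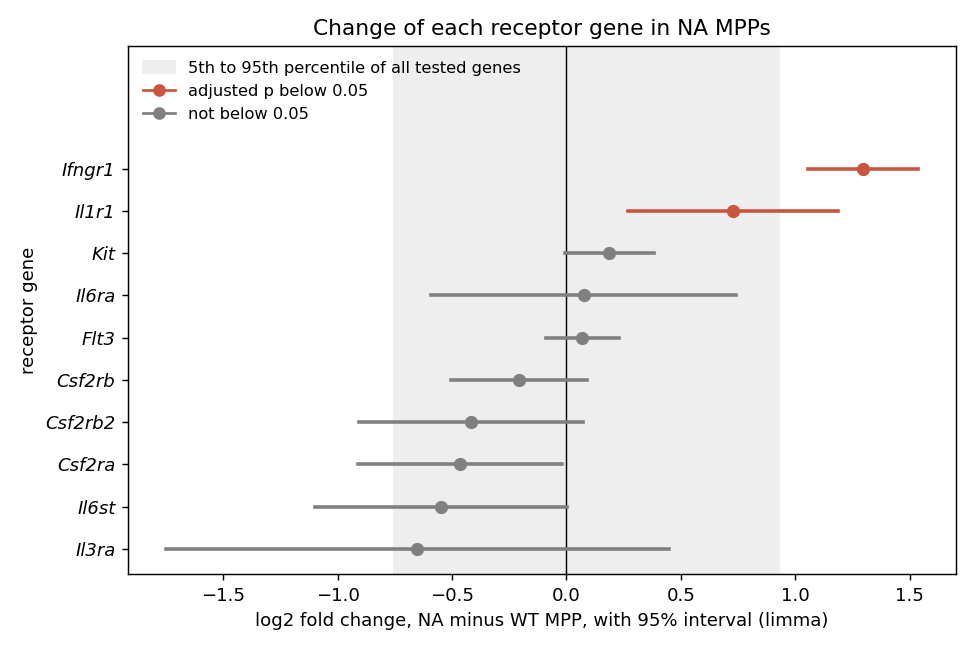
Log2 fold change of each receptor gene, NA minus WT MPP, with its 95% interval from limma (4 libraries per group). Ifngr1 at 1.30 and Il1r1 at 0.73 are the genes with an adjusted p below 0.05 (red), and the grey band spans the 5th to 95th percentile of all tested genes.

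Levels between genes were compared per kilobase of transcript. In WT MPPs the order was Flt3 (376 ± 18.6 normalised counts per kilobase, SD, n = 4), Kit (230 ± 20.6), Ifngr1 (134 ± 15.6), Csf2ra (128 ± 9.29), Csf2rb (70.9 ± 5.81), Csf2rb2 (29.8 ± 5.33), Il1r1 (17.96 ± 4.44), Il6st (12.2 ± 2.79), Il3ra (11.3 ± 5.57) and Il6ra (9.18 ± 2.13). The ranges of Ifngr1 and Csf2ra overlapped, as did those of neighbours from Il1r1 down to Il6ra. In NA MPPs Ifngr1 took the second place at 329 ± 24.6 per kilobase, above Kit at 261 ± 21.3 and below Flt3 at 394 ± 12.4 (SD, n = 4 each). Il1r1 stood at 29.4 ± 5.45, next to Csf2rb2 at 22.9 ± 7.51, with overlapping ranges. One transcript per gene sets the length, so the order would move with another isoform.

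A ratio of 2 transcripts within a library does not depend on how libraries were scaled, so 7 pairs were compared. The test was an exact permutation test over 70 assignments, two-sided. It used log2 ratios with 1 added to each value, so pairs with a low gene keep a slight dependence on scaling. The ranges given here are plain ratios. The smallest p this design allows is 0.0286, and after Benjamini-Hochberg adjustment over 7 pairs at least 5 would have to reach it for any to pass. Ifngr2 per Ifngr1 was 0.0829 to 0.116 in the NA and 0.196 to 0.394 in the WT libraries, without overlap (log2 difference -1.42, exact p = 0.0286, adjusted p = 0.1). Il6st per Il6ra was 1.96 to 2.50 in the NA and 2.74 to 4.48 in the WT libraries, also without overlap (log2 difference -0.62, exact p = 0.0286, adjusted p = 0.1). Neither this ratio nor either gene of the IL-6 receptor passed its test, and Il6ra rested on 23 to 40 reads. Of single tested genes 22% showed no overlap, and how often pairs of genes do so was not tested. The other 5 pairs overlapped and had an adjusted p of 0.543 in the same exact test. Among them, Flt3 per Kit was 0.948 to 1.19 in the NA and 1.05 to 1.24 in the WT libraries. Csf2rb per Il3ra ran from 9.88 to 63.8 in the NA libraries and 7.22 to 18.4 in the WT libraries, the top value being NA4, where Il3ra was lowest.

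**Figure D3:**
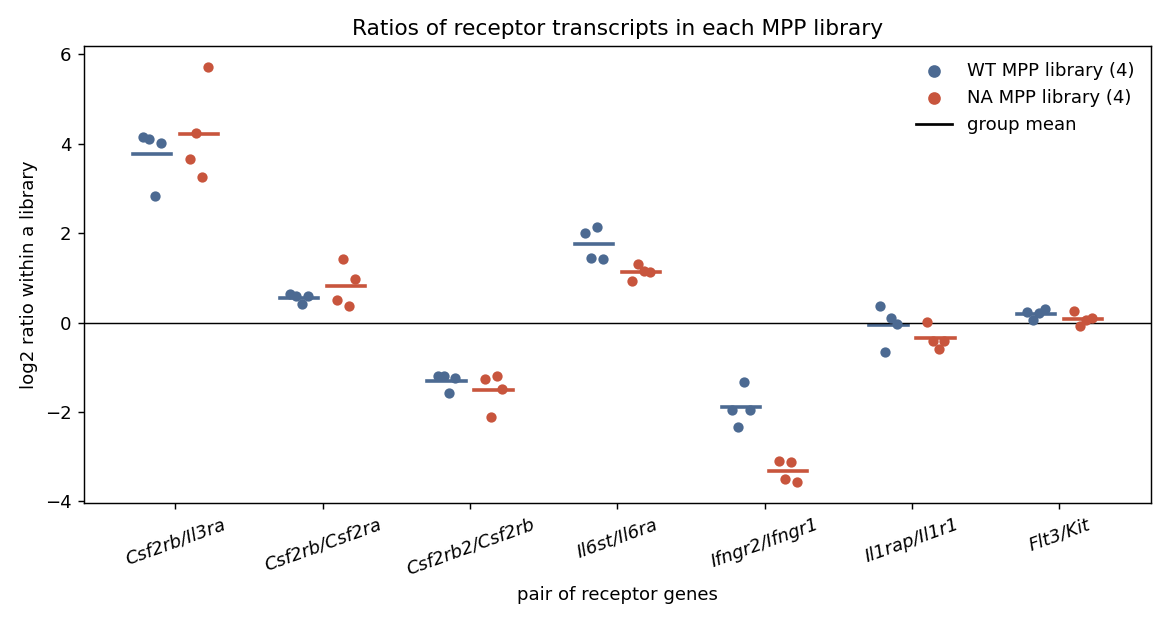
Log2 ratio of 7 pairs of receptor transcripts in each WT (blue) and NA (red) MPP library, each point 1 library and each line a group mean. Ifngr2 per Ifngr1 and Il6st per Il6ra show no overlap between the groups, and the other 5 pairs overlap.

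Several ligands of these receptors were not detected in the MPPs. Il3, Il6 and Ifng read 0 in all 8 libraries. Of 20 partner and ligand genes, 19 were in the table and 6 could be tested. None fell (against 7.87% of all tested genes) and 1 rose (16.7%, against 10.1%). This was Osm, which encodes oncostatin M, a ligand that signals through gp130 joined to a second chain. It read 60.6 ± 11.3 in the NA libraries and 14.8 ± 6.59 in the WT libraries (SD, n = 4 each). For Osm, limma gave a log2 fold change of 2.09 and an adjusted p of 0.00244. The genes of its second chains, Osmr and Lifr, were too low to test. Osmr read 0 in all 8 libraries, and Lifr read 0 in the NA and 0 to 3.55 in the WT libraries.

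Of 32 tested genes of proximal signalling, which act next to the receptors, 4 rose and 5 fell (12.5% and 15.6%, against 10.1% and 7.87% of all tested genes), with a median log2 fold change of -0.01. Shc1, an adaptor of kinase receptors, rose by a log2 fold change of 1.16 and Lyn, a Src-family kinase, by 0.55, whereas Jak3, the kinase of the common gamma chain, fell by 0.67 and Ptpn6, the phosphatase SHP-1, fell by 0.65 on the log2 scale (limma, adjusted p = 0.000274, 0.0330, 0.0211 and 0.000255). Without NA4 and WT4 1 rose and 1 fell, without NA2, NA4 or WT4 alone 2 rose, without NA4 alone 1 fell and without WT2 or WT4 alone 3 fell. With scaling by total count 2 rose and 8 fell. Of 19 tested genes that STAT5 and STAT3 are known to control, 5 rose and 3 fell (26.3% and 15.8%, against the same 10.1% and 7.87%), with a median log2 fold change of 0.34, Myc at a log2 fold change of 1.04 and Bcl3 at -1.72. Without NA4 and WT4 these counts were 4 and 1. Osm, named above, is counted among the 5 that rose.

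Of 28 tested interferon gamma response genes, 2 rose and 5 fell (7.14% and 17.9%, against 10.1% and 7.87% of all tested genes), and the median log2 fold change was -0.10. Irf1, an early target, rose by 0.48 and Gbp3, a guanylate-binding GTPase, by 0.53, whereas Irf8 fell by 1.06 and Tap2, a peptide transporter subunit, fell by 0.72 on the log2 scale. These counts were fragile: 3 fell without any 1 of NA2, NA4, WT3 or WT4, 1 rose without any 1 of NA2, NA4, WT1, WT3 or WT4, and without NA4 and WT4 none rose and 1 fell. With scaling by total count 8 fell.

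Of 17 tested genes of the IL-1 and NF-κB response, 6 rose (35.3%, against 10.1% of all tested genes) and none fell (against 7.87%), with a median log2 fold change of 0.59. The 6 that rose included Nfkbiz and Tnfaip3, which encode regulators of NF-κB, at 1.21 and 1.57, and Cd83 at 1.63. The groups overlapped for Tnfaip3 and Cd83 but not for Nfkbiz, and Cd83 rested on 11 to 116 reads. At an unadjusted p below 0.05, 1 was lower, Nfkb1 (limma, log2 fold change -0.24, unadjusted p = 0.0237). At that threshold Nfkbie and Rel, which were not called, were higher (limma, unadjusted p = 0.0173 and 0.0419). In 3 of the 20 alternatives only 2 rose, among them those without NA4 and WT4 and without the filter on low values. In the rest 4 to 8 rose. Without WT3, and with scaling by total count, 1 fell. Fos, an immediate early gene that also responds to cell handling, read 20437 ± 665 in the NA libraries and 2248 ± 1125 in the WT libraries (SD, n = 4 each, limma adjusted p = 7.46e-06), and its part in this count was not tested.

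Markers of other cell types were compared beside the receptors. The summed level of 15 lymphoid markers was 196 to 277 in the NA and 358 to 543 in the WT libraries, with Igll1, Ms4a1, Cd3e, Cd3d and Cd8a at 0 throughout. Dntt was the only one called, 12 were too low to test, and without Dntt the sums overlapped, at 152 to 247 and 164 to 301. That of 14 granulocyte and monocyte markers was 3130 to 3382 and 3577 to 4708, with Elane and F13a1 at 0, and 1706 to 1779 and 1786 to 2448 without Prtn3. Long-term stem cell markers summed to 10107 to 10404 and 8483 to 8908, all 12 of them being detected. Of these 12, 3 rose (Hlf, Mllt3 and Procr) and 2 fell (Tek and Ifitm1), with a median log2 fold change of -0.05. Without Hlf, whose means differed most, the order turned, to 5931 to 6407 in the NA and 6423 to 6628 in the WT libraries. Ifitm1, the largest part of that remainder, had means of 3107 in the NA and 3907 in the WT libraries. The turned order thus rested largely on 1 gene. The part of these shifts in the receptor values was not tested. Mast cell and basophil markers summed to 20.7 to 42.0 in the NA and 19.5 to 29.3 in the WT libraries. Of these 11 markers, 6 were at 0 in all libraries, Fcer1a and Mcpt8 among them.

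**Figure D4:**
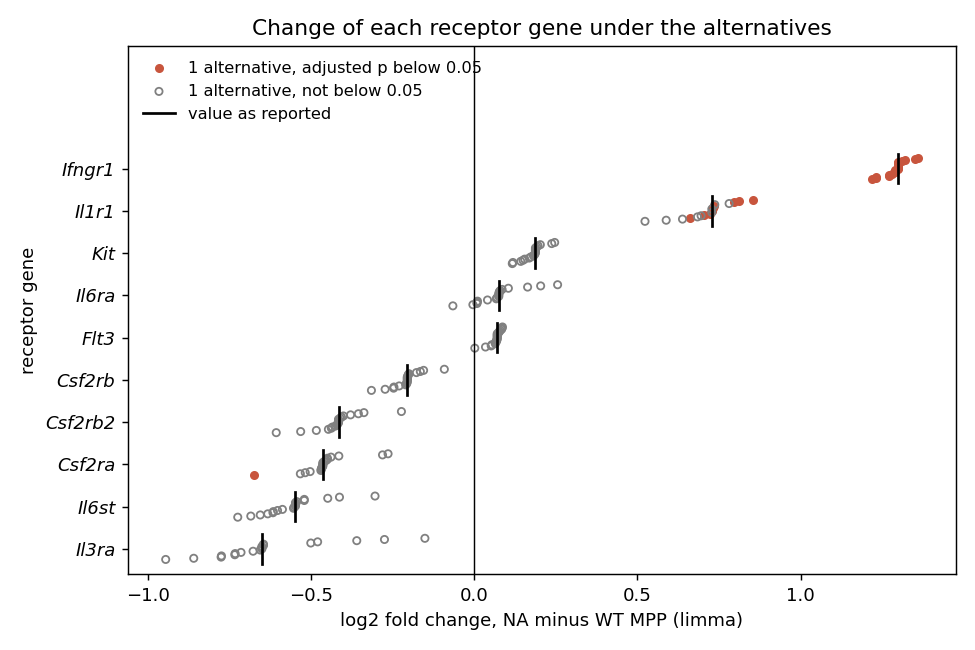
Log2 fold change of each receptor gene, NA minus WT MPP, under each alternative way of fitting (points, red where the adjusted p was below 0.05) and as reported (black lines). Ifngr1 stays between 1.22 and 1.36 and always passes, Il1r1 stays above 0 and passes in 11 of 20, and Csf2ra passes in 1.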

How the data were processed

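RNA-seq values of 8 libraries were analysed, 4 NA MPP and 4 WT MPP, grouped by their titles and named by group and number (NA1, WT4). Per the labels, reads were demultiplexed with bcl2fastq and the authors used RSEM and DESeq2 on mm10, with no versions given. Judged from the numbers, what the authors deposited is a signal already scaled, in which each RSEM count was divided by 1 factor per library: from 98.3% to 98.8% of values between 0.5 and 100 reads were whole multiples of a step within 0.02 reads. Dividing by the step gave the estimated depth of 3876893 to 4916987 reads. Because fractions of reads remained, count models, which had been planned as alternatives, were not run.

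limma 3.58.1 (R 4.3.3) was applied to log2(value + 1) of the 11451 genes that reached 10 in 4 or more libraries, with a variance trend and no covariates, and p-values were adjusted by Benjamini-Hochberg with a threshold of 0.05. Fold changes are on that scale, where the added 1 understates changes of low genes. Symbols, coordinates and lengths came from GENCODE M21 on GRCm38, which named 32916 of 37980 rows. In that annotation, exons of Il3ra and Il6ra overlap antisense genes by 46 and 242 bases, and the strand used in counting was not given in the sources used here.

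The members and the 14 gene lists were chosen with earlier results of these data known. Named genes were the 10 receptors, their partners and ligands, up to 3 called rises and 3 called falls of each list, Hoxa10, and the 3 genes most like Ifngr1. Fos, Xist, Ddx3y, Nfkb1, Nfkbie, Rel and the granulocyte and monocyte markers compared for WT3 were named after their values were seen. The model was tested on simulated data. Alternatives changed the added value, filter, scaling, variance trend, replicate block, depth class, GC trend or libraries used. Sums of marker levels without 1 gene were added after seeing the data.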

Additional observations from a re-analysis of the deposited data

Results flagged for a closer look

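In groups of 4 libraries, 1 library stood apart from the other 3 by Dixon's test in 5 of the 34 groups of values tested, where chance gives about 1 in 20. Il3ra read 45.5 in WT3 and 18.6 to 20.4 in the other WT libraries. Il1r1 read 66.0 in WT3 and 114 to 121 in the others, and without WT3 its call was lost (limma adjusted p = 0.0661). Csf2ra read 210 in WT4 and 242 to 248 in the others. The log2 ratio of Csf2rb to Il3ra was 2.83 in WT3 and 4.02 to 4.14 in the others, and that of Csf2rb2 to Csf2rb was -1.58 in WT3 and -1.25 to -1.19 in the others. In 4 of the 5 cases the library was WT3, and both ratios share Csf2rb. Among the granulocyte and monocyte markers, S100a9 read 158 in WT3 and 7.93 to 47.9 in the other WT libraries. S100a8, Ngp and Camp were also highest in WT3, whereas Prtn3 and Ccr2 were highest in WT2 and Fcgr3 in NA1. The part of such transcripts in the flagged values was not tested.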

How the results depend on the processing

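Ifngr1 kept its direction and its call under all 20 alternatives. Il1r1 kept its direction but lost its call in 9, with a limma adjusted p of 0.0787 without the filter, 0.0599 with depth class as a covariate, 0.0707 without the variance trend, 0.0598 after a GC trend was removed, 0.156 without NA4 and WT4, and 0.0517 to 0.0973 in the 4 fits that left out 1 library; the receptors called higher then numbered 1. Leaving out 1 library gave 1 to 2 receptors called higher and 0 to 1 called lower, Csf2ra without NA1. Il6ra, never called, ran from -0.0662 without WT1 to 0.255 without NA1 when 1 library was left out and was also below 0 without NA2 (-0.00484). The log2 difference of Csf2rb per Il3ra ran from -0.055 without NA4 to 0.768 without NA3. Genes called over the whole table numbered 2053, 1106 to 2141 without 1 library (1106 without NA4, 1294 without WT4) and 519 without NA4 and WT4. Scaling by total count called 2239 genes, 41.3% of them higher against 56.1% as reported, and moved the median of all genes from -0.01 to -0.08. Without NA4 and WT4 72.3% of calls were higher. Deviations of same-numbered libraries correlated at 0.0131 to 0.158, the highest being NA4 with WT4, and those of differently numbered libraries at -0.0943 to 0.101. Whether same-numbered libraries were paired was not tested. With a replicate block 2004 genes were called, Ifngr1 at a limma adjusted p of 2.42e-05 and Il1r1 at 0.0294. For the ratios the block was a sign-flip test of the same-numbered pairs, whose smallest possible p is 0.125. The 2 separated ratios stood at that smallest p (sign-flip adjusted p = 0.438), so no ratio could have passed. The planned edgeR and DESeq2 alternatives were not run because the values are not counts. Il3ra and Il6ra could not be fitted at a mean of at least 50, and at 4 to 40 reads their depth limits what could be seen.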

Other observations

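Of 23 tested cytokine receptors outside the 10, 2 rose and 5 fell (8.70% and 21.7%, against 10.1% and 7.87% of all tested genes). Il18rap, a chain of the IL-18 receptor, read 191 ± 31.6 in the NA libraries and 459 ± 62.7 in the WT libraries (SD, n = 4 each), for which limma gave a log2 fold change of -1.26 and an adjusted p of 6.80e-05. Tek, the receptor for angiopoietins, stood at a log2 fold change of -0.91 and Il21r, the IL-21 receptor, at -0.62. Tgfbr1, the type I receptor for TGF-β, stood at 0.61 and Ifnar1, a chain of the type I interferon receptor, at 0.41. None rose and 2 fell without NA4 and WT4. Without NA4 none rose, and without any 1 of NA2, WT1, WT3 or WT4 1 rose. Between 2 and 3 fell without any 1 of NA2, NA4, WT1 or WT3.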
